A study of Mus musculus with 5 samples.

Results

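Oxidative phosphorylation was followed through 94 genes whose proteins come from 2 genomes, 82 encoded in the nucleus and 12 in mitochondrial DNA. They were taken by name from the 18018 genes of a single-cell table of mouse hepatocytes: subunits of complex I (Ndufa, Ndufb, Ndufc, Ndufs and Ndufv), complex II (Sdha to Sdhd), complex III (Uqcr and Cyc1), complex IV (Cox4i1, Cox5a, Cox5b, Cox6, Cox7 and Cox8a) and ATP synthase (Atp5), with the mitochondrial mt-Nd, mt-Cytb, mt-Co and mt-Atp mRNAs. The choice went by name and used no measured value, but it was made with earlier results of these data known. Assembly factors and named pseudogenes were left out, and mt-Nd4l has no row. Atp5s and Atp5sl came in by name only and are not subunits of the enzyme. Cox7a2l and Ndufa4l2 also came in by name, and whether each remaining member is a subunit was not checked.

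The cells came from male C57BL/6J littermates that were 8 weeks old at the start and then ate a high fat diet (HFD, 3 mice) or a regular diet (LFD, 2 mice) for 12 weeks. Hepatocytes of each mouse were profiled by Drop-seq, in which mRNA is captured in droplets and tagged by cell and by molecule, so that each unique molecular identifier (UMI) stands for 1 captured molecule. HFD mice 1, 2 and 3 gave 5, 208 and 25 cells, and LFD mice 1 and 2 gave 132 and 84 cells. The design asked how single hepatocytes respond to the high fat diet.

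The respiratory chain in the inner mitochondrial membrane passes electrons from NADH (complex I) and succinate (complex II) through complex III to oxygen at complex IV. The protons pumped on the way drive ATP synthase. Mitochondrial DNA encodes core subunits of complexes I, III, IV and ATP synthase, none of complex II, and it is copied into long transcripts that are cut into single mRNAs and ribosomal RNAs. The nucleus encodes every other subunit, so each mixed complex needs products of both genomes. In the liver lobule, periportal hepatocytes receive the blood with most oxygen and are known for oxidative metabolism, while pericentral hepatocytes are known for glycolysis, glutamine synthesis and drug metabolism.

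Depth was uneven. The libraries held 27903, 656803 and 58470 UMIs in HFD mice 1, 2 and 3, and 446868 and 309050 UMIs in LFD mice 1 and 2, and no barcode was shared between libraries. A gene with 0 UMIs could reach the level of 3 counts, 108 CPM (UMIs scaled to a library of 1000000) in HFD mouse 1 but 4.57 CPM in HFD mouse 2, and such limits cover counting error only. The 14 hepatocyte markers summed to 176684 to 210026 CPM in HFD mice and 177036 and 177538 CPM in LFD mice. HFD mouse 1 stood apart: 3 of its 5 barcodes held under 15 genes per 100 UMIs, as did 5 of the 208 barcodes of HFD mouse 2 and 0 elsewhere. In HFD mouse 1, 1 barcode gave 48 of the UMIs of Uqcrh, a hinge protein of complex III, and another gave 28 of those of Ndufs8, an iron-sulfur subunit of complex I. Sinusoidal endothelial markers reached a sum of 1649 CPM in that mouse, while the other 4 had 16.2 to 34.2 CPM, with Pecam1 and Gpr182 at 0 in all libraries. For erythroid markers the sums were 502 CPM there, 291 CPM for HFD mouse 3 and 3.24 to 13.7 CPM for the remaining mice. Results are therefore given for 5 mice and for the 4 mice without HFD mouse 1.

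Not all mitochondrial mRNAs can be read in these data. The nuclear genome carries pseudogene copies of mitochondrial DNA, and the 3′ ends that Drop-seq reads are shared with them for some genes but not for others. Of the mitochondrial members, mt-Cytb had 8720 UMIs, mt-Nd1 5262, mt-Nd4 4183, mt-Nd2 4080, mt-Nd5 1761, mt-Co1 1663 and mt-Nd6 55. The other 5 had under 10 UMIs each: mt-Nd3 had 4, mt-Co2 had 3, mt-Atp6 had 2, and mt-Co3 and mt-Atp8 had 0. Each encodes a subunit of complex I (mt-Nd3), complex IV (mt-Co2 and mt-Co3) or ATP synthase (mt-Atp6 and mt-Atp8). In the GENCODE vM21 transcripts of mm10 (GRCm38), the 50-base words of the last 300 bases also occurred in another gene for 100% of mt-Co2, 99.6% of mt-Co3, 98.8% of mt-Atp6 and 98.8% of mt-Nd3. The copies of these genes lie together on chromosome 1. The values and the copies did not always go together. For mt-Co1 100% of the words were shared, yet it had 1663 UMIs, so its level is uncertain too. For mt-Atp8 0% were shared with an annotated gene, and it had 0 UMIs. Only annotated transcripts were searched. mt-Atp8 lies between mt-Co2 and mt-Atp6, and the stretch between their copies on chromosome 1 (24614651 to 24614885) was not searched, so a copy of mt-Atp8 there cannot be told from these values. The share was 31.9% for mt-Nd2, 1.99% for mt-Nd5 and 0% for mt-Nd1, mt-Nd4, mt-Nd6 and mt-Cytb. The sources used here do not say how reads that fit several genes were counted, so the part of the copies in the low counts was not tested and the levels of these 5 mRNAs cannot be read from the table.

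**Figure D1:**
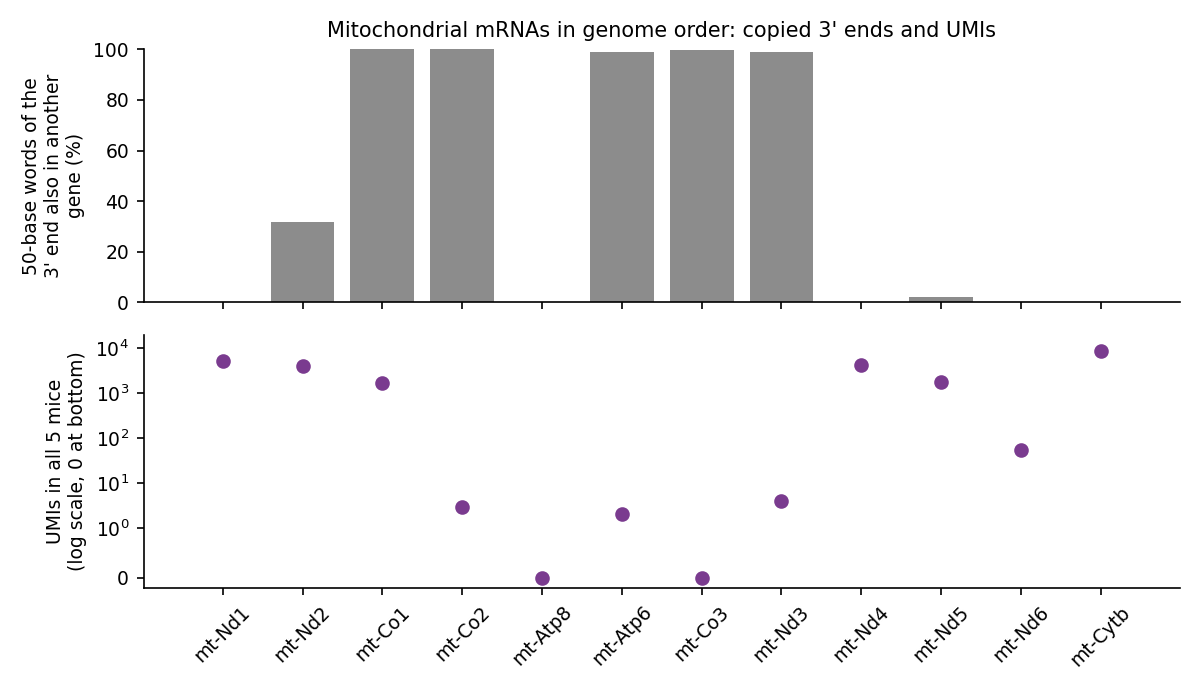
Mitochondrial mRNAs in genome order. Top, share of 50-base words in the last 300 bases of the transcript that also occur in another annotated gene (%); bottom, UMIs in all 5 mice on a log scale with 0 at the bottom. The 5 genes from mt-Co2 to mt-Nd3 hold 0 to 4 UMIs.

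The stretches below show what a read from these ends would carry. Each is 60 bases ending 10 bases before the annotated 3′ end, written 5′ to 3′ in lower case; capitals would mark bases that differ between a gene and its copy, and there were 0 differences. The mt-Cytb stretch is shown beside them as one without an annotated copy.
mt-Co2, chrM:7627-7686, plus strand: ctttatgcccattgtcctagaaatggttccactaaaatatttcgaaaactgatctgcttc
Gm28661, chr1:24614892-24614951, minus strand: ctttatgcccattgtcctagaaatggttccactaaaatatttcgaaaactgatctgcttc
mt-Co3, chrM:9321-9380, plus strand: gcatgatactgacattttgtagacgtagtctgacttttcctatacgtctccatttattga
Gm28437, chr1:24613198-24613257, minus strand: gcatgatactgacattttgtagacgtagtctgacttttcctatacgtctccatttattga
mt-Cytb, chrM:15219-15278, plus strand: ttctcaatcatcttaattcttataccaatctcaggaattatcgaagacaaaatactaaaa

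Some nuclear members have copies too. The shared words made up 73.3% of the end of Cox7c, 70.1% of Atp5l, 54.6% of Ndufs5 and 53.0% of Ndufs3, and under 50% for every other nuclear member. Their levels are uncertain for the same reason.

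Together the members made up 5.52% of all UMIs, 56991 UMIs from the nucleus and 25733 from mitochondrial DNA. The 6 abundant heavy-strand mRNAs (mt-Nd1, mt-Nd2, mt-Co1, mt-Nd4, mt-Nd5 and mt-Cytb) held 99.8% of the mitochondrial UMIs, and mt-Cytb alone, the core subunit of complex III, held 33.9%. As 5 other mRNAs cannot be read and mt-Nd4l has no row, the mitochondrial sums, shares and ratios below describe these 6 mRNAs almost alone. Nuclear UMIs were spread more widely, as the 18 most abundant members were needed to reach 50% of them. UMIs were found in over 50% of cells for 50 of the 82 nuclear members and for 6 of the 12 mitochondrial ones. The last mRNA, mt-Nd6, is read from the opposite strand and overlaps the end of mt-Nd5, and the treatment of strand is not given. It had 108, 38.1 and 68.4 CPM in HFD mice 1, 2 and 3, against 24.6 and 38.8 CPM in LFD mice 1 and 2.

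Of the nuclear members, small subunits gave the highest counts, and a UMI counts a molecule whatever its length. In complex I this was Ndufa4, first assigned to complex I and later found with complex IV. By the mean CPM of 5 mice Ndufa2 and Ndufa1 came next, on 40 and 28 UMIs in HFD mouse 1. In the 4 other mice Ndufa13 and Ndufa6, with means of 792 and 770.1 CPM, came before Ndufa1 and Ndufa2, with 621 and 594 CPM. Ndufa4 had 1362, 2253 and 2189 CPM in HFD mice 1, 2 and 3, against 1855 and 2061 CPM in LFD mice 1 and 2. In complex II the order was Sdhb, the iron-sulfur subunit, then Sdha, the flavoprotein that oxidises succinate, and Sdhc, a membrane anchor. In complex III the small accessory subunit Uqcrq had 1290.2, 2270.1 and 1949.7 CPM in HFD mice 1, 2 and 3, against 2086 and 1873 CPM in LFD mice, and Uqcr10 and Uqcr11 came after it. In complex IV Cox6a1, the liver form of subunit VIa, had 1075, 1287 and 1830.0 CPM in HFD mice, against 1195 and 1249 CPM in LFD mice, followed by Cox4i1 and Cox6c. In ATP synthase Atp5e (the epsilon subunit of the central stalk), Atp5k and Atp5j2 (subunits e and f in the membrane) led. The ranges of the 2 diets overlapped for Ndufa4, Uqcrq, Cox6a1 and Atp5e.

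Several subunits have isoforms known from different tissues. Cox6a2, the heart and muscle form, and Cox6b2, the testis form, had 0 UMIs in all libraries, a count that allows up to 2.00 CPM over all of them, while Cox6b1 was found in 78.0% of cells. Cox7a1, the heart and muscle form of subunit VIIa, had 15 UMIs in all, against 1073 for Cox7a2. Cox4i1 and Cox8a were found in 93.0% and 67.8% of cells. Of the genes for subunit c of the ATP synthase ring, Atp5g3 had 1039 UMIs, Atp5g1 225 and Atp5g2 0, with 41.4% of the words of the Atp5g2 end shared with a pseudogene.

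By diet, neither genome's share of UMIs separated the groups. Mitochondrial mRNAs made up 1.68%, 1.56% and 2.18% of UMIs in HFD mice 1, 2 and 3, against 1.84% and 1.78% in LFD mice 1 and 2. The 2 LFD values lay between those of HFD mouse 1 and HFD mouse 3, so the groups overlapped (1.81 ± 0.327% in HFD mice, SD, n = 3, and 1.81 ± 0.0384% in LFD mice, SD, n = 2). Nuclear members made up 3.53%, 3.77% and 3.70% in HFD mice 1, 2 and 3, against 3.94% and 3.71% in LFD mice 1 and 2, again with overlap. The exact 95% binomial intervals of the mitochondrial share were 1.53 to 1.84% in HFD mouse 1 and 1.53 to 1.59% in HFD mouse 2, and cover counting error only.

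The ratio of mitochondrial to nuclear member UMIs was 0.476, 0.414 and 0.589 in HFD mice 1, 2 and 3, against 0.466 and 0.481 in LFD mice 1 and 2. HFD mice held both the lowest and the highest value. HFD mouse 1 depended on its barcodes: over the 2 with 15 or more genes per 100 UMIs its ratio was 1.20, and without barcodes of few genes per UMI in any mouse the log2 ratio of HFD over LFD went to 0.66, against 0.06 with them. Mitochondrial ribosomal RNA, which the same long transcript also gives, made up 7.28%, 4.06% and 3.10% of UMIs in HFD mice, against 3.66% and 3.30% in LFD mice, with overlap. In HFD mouse 1 it made up 9.16%, 9.41% and 15.2% of the 3 barcodes with few genes per UMI, and 3.18% and 1.75% of the other 2. Without that mouse the HFD mean was 3.58%, against 3.48% in LFD mice. The ratio of ribosomal to messenger UMIs was thus 1.42 to 4.33 in HFD mice, against 1.99 and 1.85 in LFD mice. Sums over chosen members were given no p-value. By complex as named, the nuclear share of complex IV was the 1 of 5 whose groups did not overlap. It was 0.509%, 0.687% and 0.725% in HFD mice, against 0.804% and 0.726% in LFD mice, so that HFD mouse 3 and LFD mouse 2 were nearly level. Ndufa4 was counted with complex I by its name, although it was later found with complex IV. It had 2189 CPM in HFD mouse 3 and 2061 CPM in LFD mouse 2, so with it in complex IV the groups would overlap. For single genes, groups did not overlap in 23.2% of all genes tested.

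**Figure D2:**
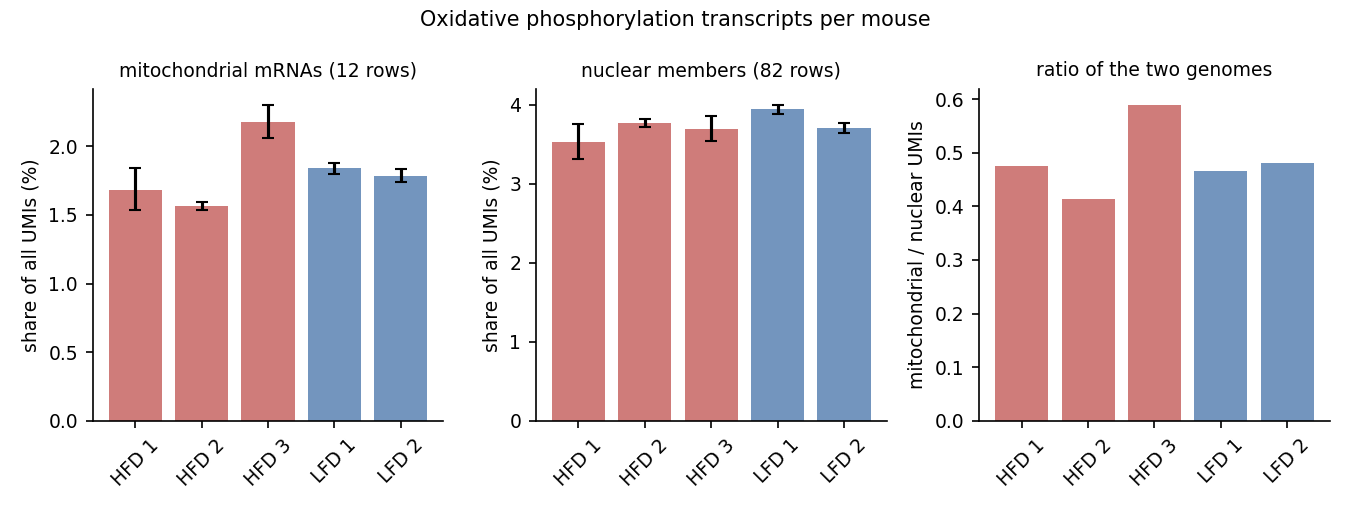
Share of all UMIs (%) from mitochondrial mRNAs (left) and nuclear members (middle), with exact 95% binomial intervals, and the ratio of their UMIs (right), 1 bar per mouse. The ratio runs from 0.414 in HFD mouse 2 to 0.589 in HFD mouse 3, with both LFD mice between them.

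Within a mouse the mitochondrial share varied more from cell to cell than the nuclear one. The cell at the 90th percentile had 8.23, 4.41 and 4.04 times the mitochondrial share of the cell at the 10th percentile in HFD mice 1, 2 and 3, and 2.74 and 2.78 times in LFD mice 1 and 2. For the nuclear share these folds were 1.88, 1.62 and 1.75 in HFD mice and 1.49 in both LFD mice. They include counting error, which weighs more on the smaller mitochondrial counts. Mitochondrial UMIs exceeded nuclear ones in 2 of 5, 11 of 208 and 7 of 25 cells of HFD mice 1, 2 and 3, against 6 of 132 and 0 of 84 cells of LFD mice 1 and 2.

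No single member passed the diet test. Genes were tested by limma voom on UMIs summed per mouse, with p-values adjusted over all genes tested and a threshold of 0.05. In 5 mice limma called 8 of 3614 genes (0.221%), and 0 of the 82 members tested, with 0 members at an unadjusted p under 0.05, beside 5.09% of all genes (0.0% of members). The other 12 members were too low to test. The members' median log2 fold change of HFD over LFD was -0.23, with 57 of 82 below 0, beside -0.08 for all genes. Groups did not overlap for 17 members, 3 of them above and 14 below LFD, which is 20.7% of tested members beside 23.2% of all genes. Without HFD mouse 1 limma called 124 of 3670 genes (3.38%) and 0 members, with 12 members at an unadjusted p under 0.05, which is 14.6% of them beside 18.2% of all genes.

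The members nearest to the threshold in 5 mice can be given as values. Cox7b, a small subunit of complex IV, had 143, 413 and 393 CPM in HFD mice 1, 2 and 3, against 653 and 531 CPM in LFD mice 1 and 2 (log2 fold change -0.85, SE 0.42, limma adjusted p = 0.988). Ndufv1, which binds NADH in complex I, had 71.7, 149 and 137 CPM in HFD mice, against 239 and 220.0 CPM in LFD mice (-0.83, SE 0.45). Sdhd, a membrane anchor of complex II, had 35.8, 114 and 85.5 CPM in HFD mice, against 170.1 and 178 CPM in LFD mice (-0.91, SE 0.49). All HFD mice lay below all LFD mice for these genes, but HFD mouse 1 rested on 4, 2 and 1 UMIs.

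The other direction held fewer. Ndufab1, the mitochondrial acyl carrier protein, had 287, 248 and 222 CPM in HFD mice, against 137 and 175 CPM in LFD mice (log2 fold change 0.67, SE 0.42). Ndufb4, an accessory subunit of complex I, had 394, 67.0 and 154 CPM in HFD mice, against 53.7 and 58.2 CPM in LFD mice (1.05, SE 0.63), with 11 UMIs behind the value of HFD mouse 1. Ndufa1, another accessory subunit, overlapped between the diets (0.36, SE 0.34), and its sign turned when the mean of the deposited log values was tested (-0.03) and without the barcodes of few genes per UMI (-0.00). The limma adjusted p was 0.988 for each.

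Atp5d, the delta subunit of the central stalk of ATP synthase, came closest without HFD mouse 1 and was singled out after its values were seen. It had 1147, 299.9 and 257 CPM in HFD mice 1, 2 and 3, against 575 and 424 CPM in LFD mice 1 and 2, so that HFD mouse 1 lay above and the other HFD mice below both LFD mice. The log2 fold change was -0.44 (SE 0.47) in 5 mice and -0.79 (SE 0.21, limma adjusted p = 0.0532) in 4 mice. It passed at -0.96 when barcodes with few genes per UMI were also left out (limma adjusted p = 0.0201). The other alternatives that kept these 4 mice did not bring it under the threshold. Without HFD mouse 3 as well, which leaves 1 HFD mouse, the log2 fold change was -0.72. The 3 HFD mice thus do not give 1 direction for it.

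Along the lobule axis the genomes parted. Each mouse's cells were ordered by the log ratio of UMIs of 15 pericentral genes (among them Glul, Cyp2e1 and Cyp1a2) to those of 15 periportal genes (among them Cyp2f2, Hal and Ass1), none of which is a member, and split at the mouse's median. On the pericentral side mitochondrial mRNAs made up 0.847%, 1.24% and 1.90% of UMIs in HFD mice 1, 2 and 3 and 1.64% and 1.44% in LFD mice 1 and 2. On the periportal side of the same mice they made up 2.10%, 1.95%, 2.47%, 1.98% and 2.07%. The 15 pericentral genes summed to 9744, 6206, 10198 and 11457 CPM on the pericentral side of HFD mice 2 and 3 and LFD mice 1 and 2, against 1166, 2012, 1784 and 1269 CPM on the periportal side. In HFD mouse 1 they had 17 and 27 UMIs, or 1823 and 1453 CPM, so its sides are hardly told apart by these genes and its side names are not borne out. In the 4 other mice the mitochondrial share was the lower on the pericentral side in 4 of 4. The exact 95% binomial intervals of the 2 sides did not overlap there, but they cover counting error only and not the spread between cells. HFD mouse 1 had values in the same direction.

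Nuclear members stayed nearly level. They made up 3.61%, 3.81% and 3.75% of pericentral UMIs in HFD mice and 3.97% and 3.77% in LFD mice, against 3.49%, 3.72%, 3.65%, 3.92% and 3.65% of periportal UMIs in the same order. The log2 ratio of the sides was 0.02 to 0.05 in the 5 mice, and the binomial intervals of the sides overlapped in each. The ratio of mitochondrial to nuclear UMIs was 0.234, 0.325 and 0.506 on the pericentral side of HFD mice and 0.413 and 0.381 on that of LFD mice, against 0.601, 0.524, 0.677, 0.505 and 0.566 on the periportal side. Its log2 ratio of pericentral over periportal averaged -0.67 ± 0.42 (SD, n = 5), and -0.49 ± 0.17 (SD, n = 4) without HFD mouse 1, whose sides hold 2 and 3 barcodes.

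**Figure D3:**
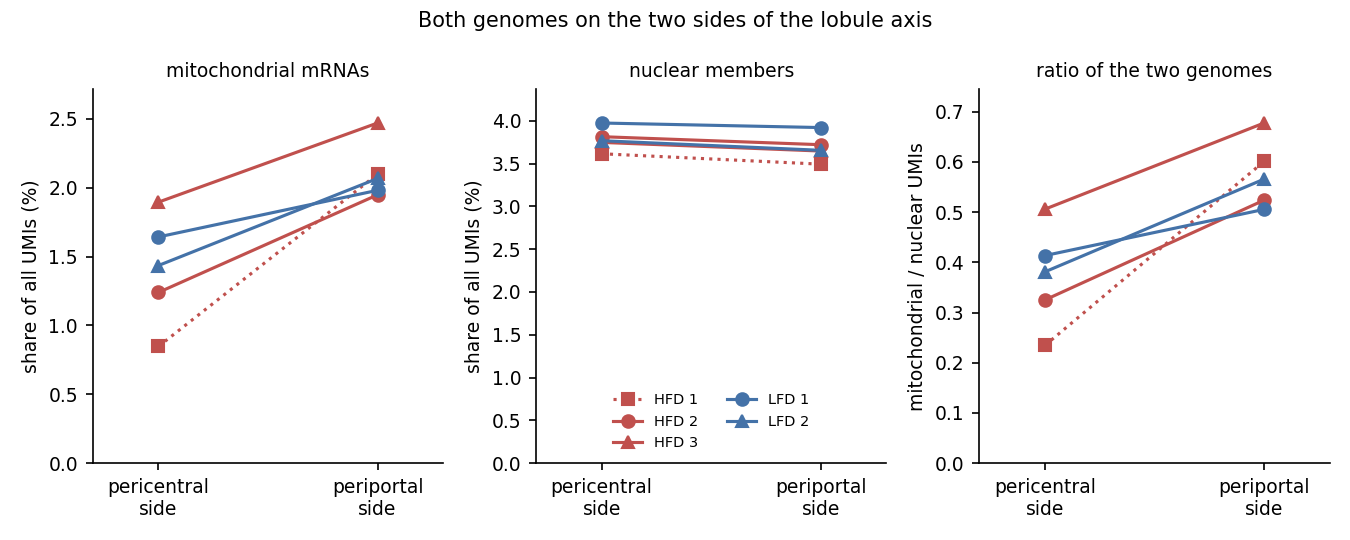
Share of all UMIs (%) from mitochondrial mRNAs (left) and nuclear members (middle) and their ratio (right) on the pericentral and the periportal side, 1 line per mouse, HFD in red, LFD in blue, HFD mouse 1 dotted. Lines of mitochondrial mRNAs climb toward the periportal side in the 4 mice with solid lines and in HFD mouse 1, whose sides are hardly told apart by the axis genes, while those of nuclear members lie flat between 3.49% and 3.97%.

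The same held when each mouse's cells were put in 3 equal bins along the axis. The log2 ratio of the pericentral over the periportal bin for the mitochondrial to nuclear ratio was -0.80 and -0.74 for HFD mice 2 and 3, and -0.62 and -0.66 for LFD mice 1 and 2. In HFD mouse 2 the ratio was 0.288 in the pericentral bin, 0.510 in the middle and 0.502 in the periportal bin. In LFD mouse 1 it was 0.339, 0.502 and 0.521, and in LFD mouse 2 it was 0.357, 0.480 and 0.563. In these 3 mice the pericentral bin was apart from the others. In HFD mouse 3, with 8 or 9 cells a bin, the values 0.538, 0.424 and 0.899 did not follow this order.

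Other measures moved with the sides to different degrees. Cells of the pericentral side had a median of 2192.5 and 1906 UMIs in HFD mice 2 and 3 and 2160 and 2756 UMIs in LFD mice 1 and 2, against 2075.5, 1791, 3426 and 3242.5 UMIs on the periportal side. Among cells above their mouse's median UMI count the log2 ratio of the sides ran from -0.84 to -0.16 over the 4 mice (mean -0.47). Among the other cells it ran from -0.76 to -0.21 (mean -0.46). The part of depth in the result was not tested. Over the 4 mice, hepatocyte markers summed to 186291 CPM on the pericentral and 199696 CPM on the periportal side, macrophage markers to 36.3 and 6.62 CPM, erythroid markers to 34.9 and 6.62 CPM, cycling markers to 15.4 and 1.32 CPM, and cholangiocyte markers to 5.59 and 49.0 CPM (Krt19, Krt7 and Epcam at 0). The part of these cells in the result was not tested. Without the barcodes of few genes per UMI, HFD mouse 1 kept 2 barcodes and its log2 ratio was 0.45, while the other 4 mice stayed between -0.57 and -0.29.

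Tested gene by gene without HFD mouse 1, the 6 mitochondrial mRNAs tested and 1 nuclear member, Atp5g1, were lower on the pericentral side. For every gene outside the axis lists, UMIs were summed per mouse and side and tested by limma voom, blocking on the mouse. In 5 mice limma called 0 of 1859 genes (0.0%), with 130 genes (6.99%) at an unadjusted p under 0.05, among them 7 of the 80 members tested. Without HFD mouse 1 it called 148 of 2045 genes (7.24%), 71 higher and 77 lower on the pericentral side. Of the members it called 7, all lower on the pericentral side, beside 3.77% of all genes in that direction. These were 6 of 6 mitochondrial mRNAs tested and 1 of 74 nuclear members. At an unadjusted p under 0.05 there were 13 members, beside 18.2% of all genes. The pericentral CPM was the lower in all 4 mice for 83.3% of these mitochondrial mRNAs, 6.76% of the nuclear members and 8.51% of all genes. The median log2 fold change was -0.62 over the mitochondrial mRNAs, -0.11 over the nuclear members and -0.01 over all genes. Scaled by library totals alone these medians were -0.51, 0.00 and 0.10, so the nuclear median depends on the scaling and the mitochondrial one kept its sign. Of the 14 hepatocyte markers 7 were also lower on the pericentral side and 0 higher, among them Alb, the serum albumin (-0.70, SE 0.06, limma adjusted p = 3.28e-09).

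mt-Cytb (chrM:14145-15288), the cytochrome b of complex III, had 1179.9, 3729 and 6206 CPM on the pericentral side of HFD mice 1, 2 and 3 and 5371 and 4943 CPM on that of LFD mice 1 and 2, against 5651, 7019, 8986, 6618 and 7753 CPM on the periportal side in the same order. The pericentral side was the lower in 4 of the 4 mice without HFD mouse 1. In HFD mouse 1, whose side names are not borne out, the values went in the same direction. In 4 mice the log2 fold change was -0.72 (SE 0.10, limma adjusted p = 6.28e-06).

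mt-Nd5 (chrM:11742-13565), a proton-pumping subunit of complex I, had 644, 749.7 and 1046 CPM on the pericentral side of HFD mice and 1034 and 958 CPM on that of LFD mice, against 1023, 1426, 1353, 1586 and 1374 CPM on the periportal side. It too was lower on the pericentral side in 4 of the 4 mice without HFD mouse 1 (log2 fold change -0.78, SE 0.13, limma adjusted p = 7.03e-05 in 4 mice). HFD mouse 1 had 6 and 19 UMIs on its sides. mt-Cytb and mt-Nd5 were the 2 members that kept their call when any 1 of the 4 mice was also left out.

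mt-Co1 (chrM:5328-6872), the catalytic subunit of complex IV, had 2359.8, 613 and 1012 CPM on the pericentral side of HFD mice and 1266 and 757 CPM on that of LFD mice, against 1399, 1189, 1700.0, 1659 and 1110.0 CPM on the periportal side. HFD mouse 1 went the other way here, with 22 and 26 UMIs on its sides, and all words of the end of mt-Co1 are shared with a pseudogene. The log2 fold change in 4 mice was -0.75 (SE 0.13, limma adjusted p = 0.000207).

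The remaining complex I subunits differed less. mt-Nd4 (chrM:10167-11544) had 3542 CPM on the pericentral and 3469 CPM on the periportal side of HFD mouse 3. It was lower on the pericentral side in HFD mouse 2 and both LFD mice (log2 fold change -0.51, SE 0.12, limma adjusted p = 0.00402 in 4 mice). mt-Nd1 (chrM:2751-3707) and mt-Nd2 (chrM:3914-4951) were lower on the pericentral side in all 5 mice, with log2 fold changes of -0.42 (SE 0.10) and -0.41 (SE 0.11) in 4 mice (limma adjusted p = 0.00522 and 0.0112). Without HFD mouse 2, the deepest library, mt-Nd1, mt-Nd2, mt-Nd4 and mt-Co1 no longer passed (log2 fold changes -0.37, -0.41, -0.43 and -0.61), and mt-Nd1 and mt-Nd4 did not pass without LFD mouse 2 either. mt-Nd6 was too low to test on the axis, at 0, 19.6 and 67.5 CPM on the pericentral side of HFD mice and 26.4 and 36.0 CPM on that of LFD mice, against 161, 60.1, 69.4, 23.3 and 41.1 CPM on the periportal side.

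The ribosomal RNAs of the same transcript were not called. In 4 mice the log2 fold change was -0.31 (SE 0.12, limma adjusted p = 0.121) for mt-Rnr1, the small subunit RNA, and -0.10 (SE 0.07, limma adjusted p = 0.505) for mt-Rnr2, the large one. mt-Rnr2 had 53073 UMIs, more than the mitochondrial mRNAs that can be read had together. Its log2 ratio of the sides was -0.02 and -0.37 in HFD mice 2 and 3 and 0.11 and 0.10 in LFD mice 1 and 2. Whether messenger and ribosomal RNA differ from each other along the axis was not tested.

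**Figure D4:**
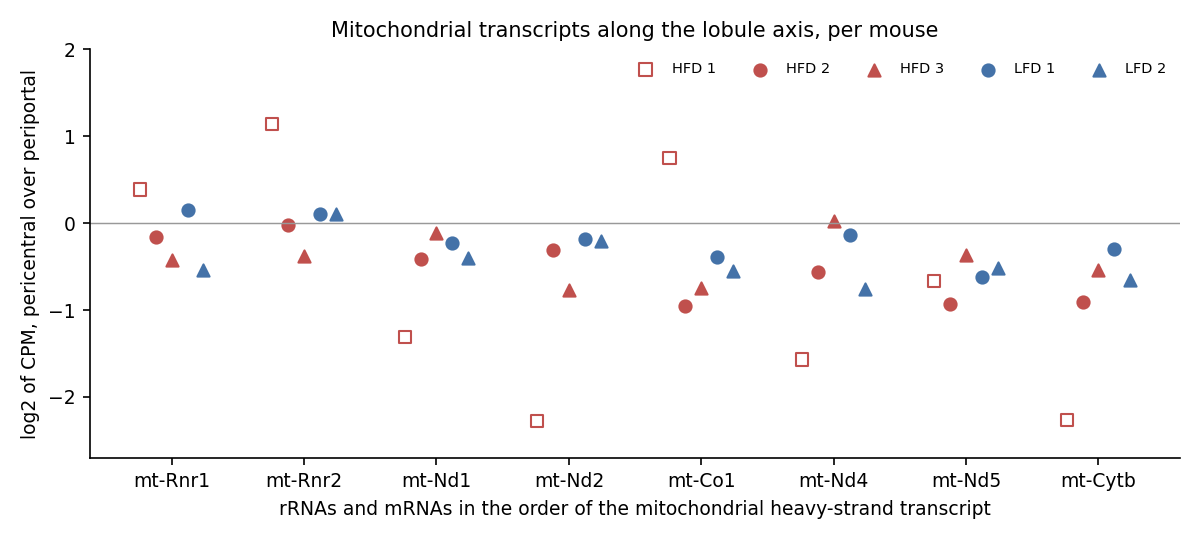
Log2 ratio of CPM on the pericentral over the periportal side for the mitochondrial ribosomal RNAs and the 6 mRNAs tested, in genome order, 1 point per mouse (HFD red, LFD blue, HFD mouse 1 open). Filled points of the mRNAs lie below 0 except mt-Nd4 in HFD mouse 3 (0.03), and those of mt-Rnr2 lie between -0.37 and 0.11.

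Atp5g1 (chr11:96068852-96075670, minus strand), a gene for subunit c of ATP synthase, was the nuclear member called. It had 0, 115 and 236 CPM on the pericentral side of HFD mice 1, 2 and 3 and 106 and 93.7 CPM on that of LFD mice 1 and 2, against 53.8, 177, 347, 190.4 and 182 CPM on the periportal side. The pericentral side was lower in HFD mice 2 and 3 and LFD mice 1 and 2, on 41, 7, 20 and 13 UMIs against 53, 10, 49 and 31. HFD mouse 1 had 0 and 1 UMIs on its sides, whose names are not borne out. The log2 fold change in 4 mice was -0.85 (SE 0.22, limma adjusted p = 0.0101), and its limma adjusted p was 0.0562 to 0.104 when HFD mouse 2, LFD mouse 1 or LFD mouse 2 was also left out. At its end 20.3% of the words are shared with other genes. Atp5g3, which encodes the same mature protein, had a log2 fold change of 0.10.

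No other nuclear member passed in either direction in this fit. By complex, the median log2 fold change in 4 mice was -0.11 over 37 nuclear members of complex I, -0.39 over the 4 of complex II, -0.00 over the 9 of complex III, -0.14 over the 11 of complex IV and -0.08 over the 13 of ATP synthase tested. Complex II, the one without a mitochondrial subunit, had all 4 members below 0, and limma called 0 of them (Sdhd -0.58, SE 0.23, adjusted p = 0.148). Cox5a, a subunit on the matrix side of complex IV, had lower values on the pericentral side in 4 of the 4 mice without passing (-0.38, SE 0.14, limma adjusted p = 0.102), and passed between the outer of 3 bins (-0.56, limma adjusted p = 0.0497). Sdhb passed without the 5% of cells with most UMIs (-0.57, limma adjusted p = 0.0393). Toward the pericentral side Ndufb7, an accessory subunit of complex I, had the smallest p (0.36, SE 0.16, limma adjusted p = 0.228), followed by Atp5e (0.25, SE 0.13) and Atp5d (0.28, SE 0.18). In 5 mice the nuclear members of smallest p toward the pericentral side were Ndufs8 (0.78, SE 0.61), Ndufv3 (0.57, SE 0.47) and Ndufa10 (0.40, SE 0.41), and HFD mouse 1 had 3003 CPM of Ndufs8 on its pericentral side, 28 UMIs of which came from 1 barcode. In 4 mice Ndufs8 was 0.05, and in 5 mice all 3 signs turned with a score without Cyp2e1 and Cyp2f2. Toward the periportal side they were Atp5g1 (-0.99, SE 0.31), Sdhc (-1.02, SE 0.39) and Sdhb (-0.95, SE 0.46), beside a median of -0.24 over all genes in 5 mice.

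**Figure D5:**
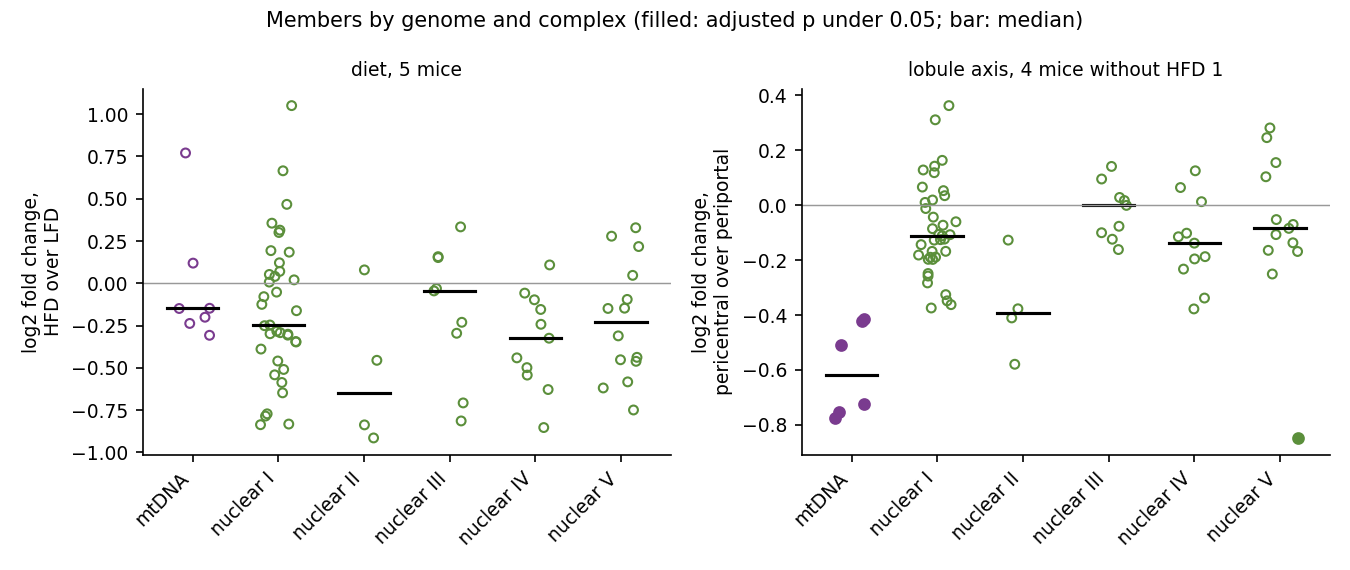
Log2 fold change of each tested member by genome and complex, left for diet in 5 mice (HFD over LFD), right for the axis in the 4 mice without HFD mouse 1 (pericentral over periportal). Filled points passed an adjusted p of 0.05 and bars are medians. On the right all 6 mitochondrial mRNAs and Atp5g1 are filled, and on the left 0 points are.

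The mitochondrial difference did not itself differ detectably between diets. A diet by side term in limma called 0 of the 80 members in 5 mice and 0 in 4 mice (0.0% of 1859 genes and 0.0978% of 2045 genes called). In 4 mice the smallest unadjusted p among members gave an adjusted p of 0.886. With 2 mice a diet the test can miss differences: the mitochondrial mRNAs had interaction values from -0.47 to 0.02 on the log2 scale.

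Cell by cell, the shares of the genomes had no positive relation in any of the 4 larger libraries. Spearman's rho between the nuclear and the mitochondrial share was -0.09 and -0.37 for HFD mice 2 and 3 (208 and 25 cells) and -0.19 and -0.01 for LFD mice 1 and 2 (132 and 84 cells). These are descriptions over cells that share a library, and both shares have the same total as denominator. The mitochondrial share had a rho with the axis score (high toward pericentral) of -0.34 and -0.35 in HFD mice 2 and 3 and -0.43 and -0.50 in LFD mice 1 and 2. The nuclear share had -0.05 and 0.25 in HFD mice and 0.10 and -0.19 in LFD mice, with no common sign. In the authors' second table, named for MAGIC, which averages values over similar cells, the rho of the genomes was -0.44 and -0.12 in HFD mice 2 and 3 and -0.21 and -0.51 in LFD mice 1 and 2. There the nuclear members also followed the axis, with a rho of 0.70 and 0.45 in HFD mice and 0.50 and 0.68 in LFD mice. The unsmoothed rho over cells does not show this relation. The unsmoothed share by side was slightly higher on the pericentral side in these 4 mice (log2 ratio 0.02 to 0.04).

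Genes that serve the same chain were read from lists chosen with earlier results of these data known. By diet in 5 mice limma called 0 members of every list, and the medians of log2 fold change were -0.24 over 14 genes of the citric acid cycle, 0.20 over 15 assembly factors, -0.24 over 62 genes of the mitochondrial ribosome, 0.13 over 5 genes of mitochondrial transcription and RNA processing and -0.21 over 50 cytosolic ribosomal proteins, beside -0.08 for all genes. Without HFD mouse 1, 2 of the 50 cytosolic ribosomal genes were lower in HFD mice, beside 2.1% of all genes called in that direction. They were Rps14, at 215, 323 and 308 CPM in HFD mice 1, 2 and 3, against 553 and 557 CPM in LFD mice (-0.80, SE 0.19, limma adjusted p = 0.0236 in 4 mice), and Rpl14 (-1.02, SE 0.27, limma adjusted p = 0.0445). Of 10 immediate early genes, which stress and cell isolation are known to induce, 2 were higher in HFD mice in 4 mice, beside 47 of all 3670 genes. These were Dusp1 (2.41, SE 0.40, limma adjusted p = 0.00241) and Jun (1.31, SE 0.22, limma adjusted p = 0.00302). In 5 mice neither passed (limma adjusted p = 0.323 and 0.988). All 10 immediate early genes had log2 fold changes above 0 in both fits. Their median was 0.77 in 5 mice and 0.92 in 4 mice, beside -0.08 and -0.00 for all genes. Jun had 71.7 CPM in HFD mouse 1, below the 137 and 113 CPM of LFD mice 1 and 2. The part of the immediate early response in the members' values was not tested. In the citric acid cycle Idh3a, a subunit of isocitrate dehydrogenase, and Suclg2, of succinyl-CoA ligase, had the smallest p (1.06, SE 0.62 and 0.75, SE 0.53 in 5 mice). In the entry of pyruvate and of electrons, Pdk2, a kinase that inhibits pyruvate dehydrogenase (-1.34, SE 0.61), Mpc1, a pyruvate carrier subunit (1.04, SE 0.57), Gpd2, the glycerol phosphate dehydrogenase (0.96, SE 0.64), and Prodh, the proline dehydrogenase (-0.73, SE 0.53), were nearest. Of the assembly list these were Cox19 (0.96, SE 0.62) and Ndufaf4 (0.62, SE 0.49), and of the mitochondrial ribosome Mrps15 (-1.38, SE 0.62) and Mrpl1 (1.19, SE 0.63). Of 9 transcription regulators, among them Ppargc1a and Nrf1, Ppara was the 1 high enough to test in 5 mice (0.07, SE 0.52).

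Along the axis in 4 mice, where 7.24% of all genes were called (3.47% higher on the pericentral side), limma called 0 of 12 citric acid cycle genes, 0 of 9 assembly factors, 0 of 44 genes of the mitochondrial ribosome and 0 of 4 genes of mitochondrial transcription and RNA processing. Of 6 mitochondrial carriers it called 1, Slc25a5, an ADP/ATP carrier of the inner membrane, which was lower on the pericentral side (-0.71, SE 0.16, adjusted p = 0.0044). Of 7 antioxidant enzymes it called 1, Sod1, the copper and zinc superoxide dismutase, which was higher there (0.53, SE 0.13, adjusted p = 0.00584). Of 39 cytosolic ribosomal genes it called 1, Rpl26, also higher (0.84, SE 0.23, adjusted p = 0.0174). The lists' medians were -0.13, -0.24, -0.05 and 0.13 for the first 4 and 0.03, 0.04 and 0.17 for the others, beside -0.01 for all genes.

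Some nuclear members hold promoter words that the choice did not use. RefSeq promoters of GRCm38.p6, 250 bases before to 50 after the start, were matched for 68 nuclear members. Each word was searched on both strands. The NRF1 word GCGCATGCG was found in 8 of them (11.8%), beside 1.95% of all 27025 genes. The GABPA word ACTTCCGG was found in 5 (7.35%, beside 4.31%) and the YY1 word AAGATGGCG in 8 (11.8%, beside 1.64%). NRF1 and GABPA are known regulators of respiratory chain genes. Most members lack each word, no enrichment was tested, and a match is a description and not a binding site. Among abundant members, Cox6a1 and Atp5k hold the NRF1 word, shown in capitals with 10 bases on each side. It begins 162 bases before the start of Cox6a1 and 50 before that of Atp5k.
Cox6a1, chr5:115349102-115349130, minus strand: caggaacgggGCGCATGCGcgctctcgct
Atp5k, chr5:108434431-108434459, minus strand: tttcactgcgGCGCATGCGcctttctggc
Neither gene passed the diet or the axis test (Cox6a1 0.11, SE 0.30 by diet in 5 mice and -0.14 on the axis in 4 mice; Atp5k 0.22, SE 0.33 and -0.17).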

How the data were processed

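The 2 deposited tables were used, each with 454 cells and 18018 genes. In the first, the authors deposited the natural log of 1 plus UMIs per 10000 of the cell, as the values show; whole UMIs were recovered for 100% of values within 0.001. The second, deposited as smoothed natural log values and named for MAGIC, served only for correlations over cells. STAR 2.6.0a and mm10 were used, per the submitters' processing notes; the cell filter, strand, doublets and the counting of shared reads are not stated in the sources at hand, and no doublet caller was run. The sample titles gave the groups, and 0 columns of cells were unmapped. Littermates are separate animals.

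UMIs were summed per mouse, or per mouse and side, and fitted in R 4.3.3 by voom of limma 3.58.1 with trimmed-mean factors; p-values were adjusted by Benjamini-Hochberg. For diet with all mice, a gene was tested if it reached 32.4 CPM (10 UMIs in the median library) in 2 mice and had 15 UMIs in all. The CPM cut was set anew in each fit, as 10 UMIs in the median of its sums. On the axis 4 sums had to reach it, of 10 with all mice, and the minimum of 15 UMIs also held. Sums per side are smaller than whole libraries, so the axis cut was above 32.4 CPM. The fits were also run on simulated sums with the same spread in every library and known changes larger than any given here for a member. Those runs do not tell how well changes of the members' size are found. Alternatives were other scalings, filters, weights, limma-trend, left-out cells and mice, bins and another axis score. Shared replicate numbers were not taken to pair mice. Deviations of same-numbered mice correlated at 0.03 (number 1) and 0.07 (number 2). With 2 LFD mice, whose deviations mirror each other, these values cannot exclude pairing.

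The members, lists and the fits in 4 mice were chosen with earlier results of these data known. Named are the mitochondrial members, the 3 nuclear members of each complex with the highest mean CPM over 5 mice (Ndufa13, Ndufa6 and Atp5d were added after seeing their values), every member called, the 3 nuclear members of smallest p in each direction, tissue isoforms and 2 genes per list. A fold change is on the log2 scale. Transcript ends came from GENCODE vM21. The raw-read name of HFD mouse 3 differs in form from the others, and whether it was a separate run is not given; values without it are among the alternatives.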

Additional observations from a re-analysis of the deposited data

How the results depend on the processing

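By diet in 5 mice limma called 8 genes, and 29 with a replicate block. That block took mouse number as a term, although the numbers are not known to pair mice. The count was 37 without barcodes of few genes per UMI, 14 on the mean of the deposited log values and 50 with sample quality weights. It was 2 without the 5% of cells richest in UMIs, 2 without a filter on low counts, and 0 with limma-trend or a minimum of 50 UMIs. Leaving out a mouse gave 0 to 124. The count of members called was 0 under each of these, a count that cannot fall. In 4 mice the diet count of 124 was 78 without a filter, 40 without the 5% of cells with most UMIs, 20 with limma-trend and 0 to 202 with a further mouse left out, and 1 member, Atp5d, was called without barcodes of few genes per UMI or without HFD mouse 3 (leave-outs 0 to 1).

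Along the axis in 5 mice, where 0 genes were called, 50 were called without barcodes of few genes per UMI (2 members), 123 with quality weights (6 members) and 8 in the outer of 3 bins. Leaving out a mouse gave 0 to 148 genes and 0 to 7 members. In 4 mice the 148 genes and 7 members became 9 and 0 with no replicate block (the mouse), 26 and 3 with limma-trend, and 23 to 185 genes and 2 to 7 members with a further mouse left out. With mitochondrial rows left out 1 member remained. The count was 8 between the outer of 3 bins, with Cox5a added, and 8 without the 5% of cells with most UMIs, with Sdhb added. Signs turned for Ndufa1 by diet (-0.0033 without barcodes of few genes per UMI, -0.032 on mean log values), for Ndufs8 (-1.52), Ndufv3 (-0.99) and Ndufa10 (-1.23) in 5 mice with the score without Cyp2e1 and Cyp2f2, for Ndufa10 without barcodes of few genes per UMI (-0.065) and without HFD mouse 1 (-0.012, leave-outs up to 0.74), and for Atp5d on the axis in 4 mice without HFD mouse 2 (-0.014, leave-outs up to 0.40). None of these had passed the test.

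For HFD over LFD the log2 mitochondrial share was -0.00, with 0.20 as a mean over cells, 0.36 without barcodes of few genes per UMI and -0.16 to 0.09 without 1 mouse. The nuclear share was -0.06, with 0.0062 without the 5% of cells with most UMIs, -0.21 without barcodes of few genes per UMI and -0.10 to -0.01 without 1 mouse. Their ratio was 0.06, with 0.31, 0.66 (mean over cells, without those barcodes) and -0.09 to 0.17. The axis ratio of -0.67 was -1.26 in the outer of 3 bins, where HFD mouse 1 had 1 cell a bin at -3.50 and the 4 other mice averaged -0.70, and -0.25 without barcodes of few genes per UMI, where HFD mouse 1 was at 0.45. Without 1 mouse it was -0.76 to -0.49. In the MAGIC table the rho of the genomes was -0.44 in HFD mouse 2 and -0.51 in LFD mouse 2. The causes of these shifts were not tested. Depth limits HFD mice 1 and 3 most, and alternatives in 4 mice were chosen after seeing the data.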
